A study of Rattus norvegicus with 192 samples.

Results

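Di(2-ethylhexyl) phthalate (DEHP), a plasticizer of flexible vinyl plastics, was given to rat liver cells at 0.4, 1.2, 3.7, 11.1, 33.3 and 100 µM. The 6 libraries whose labels name DEHP, 1 per dose, were compared, out of a series that holds 186 other libraries, with 8 libraries of cells that received only the solvent. The cells were primary hepatocytes of male rats on collagen-coated plates, and all libraries compared here were exposed for 24 h in 0.1% dimethyl sulfoxide (DMSO). The whole series covers 29 chemicals at 6 doses each and some reference chemicals at 1 dose, measured by TempO-Seq, in which pairs of detector oligonucleotides are ligated on a transcript, amplified and counted. Of the 9 DMSO libraries, replicate 1 stands apart from the rest and was left out. Whether the wells hold cells of different animals or cultures is not stated in the labels. The p-values therefore speak only of how much these libraries vary, possibly for technical reasons, and a dose has no replicate check.

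DEHP is hydrolysed in gut and liver to its monoester, which activates the nuclear receptor PPARα (Ppara). PPARα binds DNA with a retinoid X receptor at paired half-sites and raises the genes of fatty acid oxidation in peroxisomes, mitochondria and microsomes. In rodents, chemicals of this kind enlarge the peroxisome compartment of the liver, which gave them the name peroxisome proliferators.

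The DEHP libraries held 3663083 to 4478145 counts and the DMSO libraries 2876741 to 8513985. All DEHP libraries were on plate 2 with 3 of the DMSO libraries, replicates 4, 5 and 6. DMSO replicate 5 had the lowest total and the lowest correlations with the other DMSO libraries (Pearson r across probes on log2 values of 0.85 to 0.93). A library score, set to 1 for replicate 5 and to about 0 for the other DMSO libraries of plate 2, was -0.12 to 0.34 in the DEHP libraries and highest at 33.3 µM. Levels are CPM (a probe's share of its library's counts, scaled to a fixed total), and a gene stands in the lists by its most abundant probe. The TMM normalisation of the fits does not enter these levels. The cells carried hepatocyte transcripts: the summed level of 19 hepatocyte markers was 43330 to 63750 CPM in DMSO and 37880 to 50110 CPM with DEHP. The DMSO median was 44960 CPM, and the highest DMSO value was that of replicate 5. Summed markers of macrophages reached at most 174 CPM in DMSO and 161 CPM with DEHP. For endothelial cells these maxima were 52.4 and 41.3 CPM, for stellate cells 291 and 316 CPM, and for bile duct cells 54.0 and 60.5 CPM. Among the markers at 0 in all 14 libraries were Timd4 of the macrophage list, Col1a1 and Ngfr of the stellate list and Krt7, Cftr and Muc1 of the bile duct list.

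At 33.3 µM 33 of 59 PPARα genes tested lay above all 8 DMSO libraries (14.6% of all genes did), and at 100 µM 9 did (17% of all genes). Cyp4a1, a fatty acid ω-hydroxylase of the microsomes and a standard marker of PPARα activation, had 34.8, 40.3 and 56.4 CPM as the lowest, median and highest of the 8 DMSO libraries. With DEHP it had 38.2, 35.4, 29.9 and 34.9 CPM from 0.4 to 11.1 µM, 277 CPM at 33.3 µM and 49.4 CPM at 100 µM. So 1 dose of 6 lay above every DMSO library, and the library at 100 µM lay within their range. Tested alone against DMSO with edgeR's quasi-likelihood test in a model that includes the plate, after Benjamini-Hochberg adjustment, the library at 33.3 µM gave 1 call among 9999 probes (0.01%) at an adjusted p under 0.05, and that was Cyp4a1. Its log2 change was 2.62 ± 0.25 (SE, adjusted p = 0.0167). The count rose to 10 probes without DMSO replicate 5, 6 without the plate term and 19 with DESeq2, and fell to 0 when any of DMSO replicates 2, 3, 4, 6 or 8 was left out. Of the 10 probes called without replicate 5, 7 are PPARα genes, all higher: Cyp4a1, Ehhadh, Cyp4a2, Ech1, Eci1, Acot2 and Acaa2. The others were Isg15, which was higher, and Derl2 and Khk, which were lower.

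**Figure D1:**
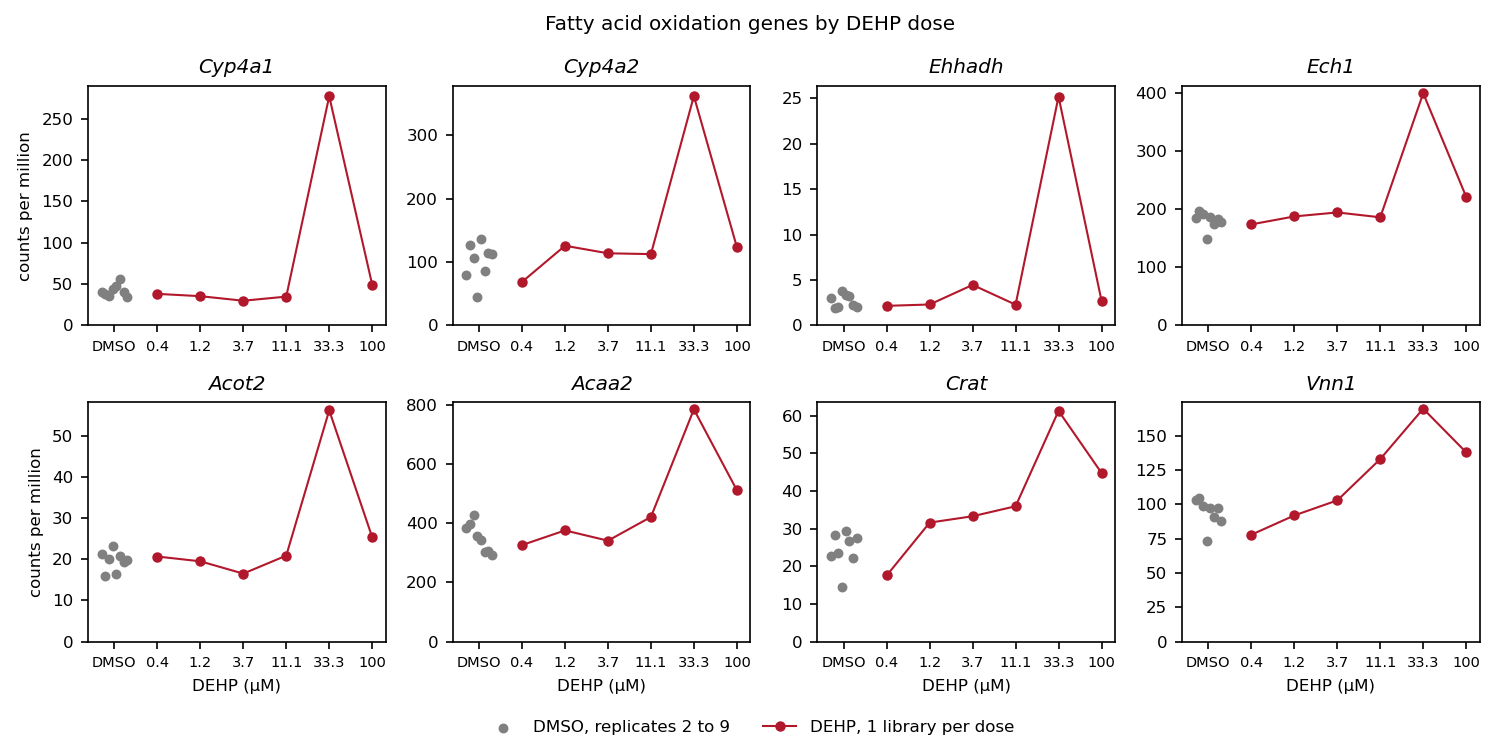
CPM of 8 PPARα genes in the 8 DMSO libraries (grey points) and in the DEHP libraries (red, 1 library per dose in µM). Each gene is highest at 33.3 µM, where Cyp4a1 reaches 277 CPM, and lower again at 100 µM.

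Among the peroxisomal enzymes, the bifunctional enzyme Ehhadh had 1.96, 2.66 and 3.82 CPM in DMSO and 2.16, 2.31, 4.47, 2.29, 25.2 and 2.73 CPM with DEHP. Its value at 33.3 µM rested on 95 counts, where the library at 100 µM had 10, and it was 9.24 times the DMSO mean. The library at 3.7 µM was slightly above the DMSO range, and the others were within it. Ech1, a dienoyl-CoA isomerase, had 174, 188, 195, 187, 400 and 222 CPM, where the DMSO libraries ran from 150 to 197 CPM. Only the libraries at 33.3 and 100 µM were outside that range. Crat, carnitine acetyltransferase, had 17.6, 31.6, 33.3, 35.9, 61.2 and 44.8 CPM with DEHP and 14.6, 25.1 and 29.3 CPM as the lowest, median and highest of DMSO. Every dose of Crat from 1.2 µM upward lay above all DMSO libraries, and the lowest dose lay inside their range.

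Of 18 mitochondrial genes tested, 14 lay above all DMSO libraries at 33.3 µM (77.8%, against 14.6% of all genes). At 100 µM 4 did (22.2%, near the 17% of all genes). Eci1, an enoyl-CoA isomerase, had 281, 326, 336, 357, 1173 and 670 CPM with DEHP and 218, 326 and 637 CPM as the lowest, median and highest of DMSO. Acaa2, the mitochondrial thiolase, had 326, 376, 341, 421, 785 and 512 CPM against 294 to 428 CPM in DMSO. Acot2, an acyl-CoA thioesterase, had 20.7, 19.5, 16.5, 20.9, 56.2 and 25.4 CPM against 16.1 to 23.3 CPM in DMSO. For these genes the libraries at 33.3 and 100 µM were above all DMSO libraries, the former by more. Cpt1a, which admits long-chain fatty acids to mitochondria, had 15.9, 22.6, 15.0, 16.1, 38.4 and 19.9 CPM, with DMSO at 12.9 to 26.5 CPM. At the highest dose Cpt1a was back inside the DMSO range.

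Among the cytosolic and microsomal enzymes, the thioesterase Acot1 was almost silent in DMSO, with 0 to 4 counts per library (at most 1.03 CPM). It had 0, 0.26, 0, 0.25, 10.6 and 0.82 CPM over the rising doses, which is 40 counts at 33.3 µM and 3 at 100 µM. It passed the minimum level in too few libraries to be tested. Cyp4a2 had 68.8, 126, 114, 113, 362 and 124 CPM with DEHP, with DMSO at 44.5 to 136 CPM. Vnn1, a pantetheinase, had 77.9, 91.9, 103, 133, 170 and 138 CPM, where DMSO had 73.0, 97.5 and 105 CPM as the lowest, median and highest. Its 3 highest doses were all above DMSO. Acsl1, which activates long-chain fatty acids, had 106 CPM at 33.3 µM and 18 CPM at 100 µM, on either side of the DMSO range of 46.9 to 94.8 CPM. The fatty acid transporter Cd36 also crossed that range, with 285 CPM at 33.3 µM and 68.0 CPM at 100 µM against 111 to 171 CPM.

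Of 87 genes on 4 PPARα lists, 70 had a probe and 59 were tested. At 33.3 µM, 33 of the 59 (55.9%) lay above all 8 DMSO libraries, where 14.6% of all 9465 genes tested did so. By list these were 8 of 11 peroxisomal genes, 14 of 18 mitochondrial genes, 7 of 10 microsomal and cytosolic enzymes, and 4 of 20 genes of lipid uptake, droplets and signalling. At 100 µM, 9 of the 59 (15.3%) lay above all DMSO libraries, against 17% of all genes, which is near the background. Below 33.3 µM the count was 4 at 0.4 µM, where 5.62% of all genes lay above. It was 2 at 1.2 µM (9.24% of all genes), 7 at 3.7 µM (11.4%) and 7 at 11.1 µM (9.42%). Without DMSO replicate 5, which was the highest of the 8 for Eci1 and the lowest for Crat, 39 of 59 lay above the other DMSO libraries at 33.3 µM, against 23% of all genes. At 100 µM 15 of 59 did so, against 23.1% of all genes.

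Most of the set was lower at the highest dose: 55 of the 59 PPARα genes (93.2%) had a higher level at 33.3 µM than at 100 µM, where 48.5% of all genes did. Of the 33 genes above DMSO at 33.3 µM, 24 were not above it at 100 µM. These shares compare 2 libraries and carry no test. The library at 33.3 µM also had the highest library score of the 6, and the part of that in the difference was not tested.

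**Figure D2:**
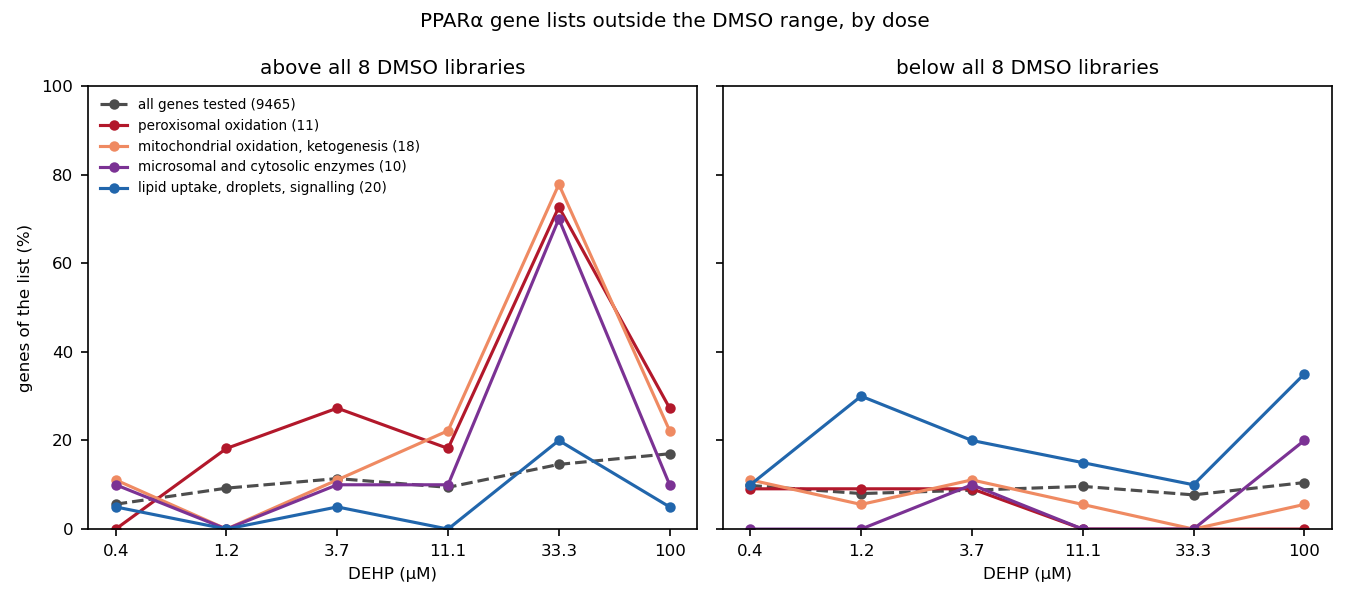
Percentage of the genes of 4 PPARα lists and of all genes tested that lie above (left) or below (right) all 8 DMSO libraries, by DEHP dose in µM, with the number of genes tested in the legend. The 3 lists of oxidation enzymes peak at 33.3 µM, where 55.9% of the 4 lists together are above DMSO, and fall at 100 µM.

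Ppara itself, the receptor, had 20.6, 31.8 and 36.3 CPM as the lowest, median and highest of DMSO, and 51.7, 20, 17.6, 28.0, 24.1 and 22.1 CPM over the DEHP doses. The lowest dose was above the DMSO range and the doses of 1.2 and 3.7 µM were below it. Among the hormone and transport genes that PPARα also controls, Fgf21, a fasting hormone, had 41.1, 21.8, 28.6, 25.0, 30.2 and 21.6 CPM, with DMSO at 26.7 to 42.8 CPM. Pdk4, a kinase that switches off pyruvate dehydrogenase, had 4.81, 5.14, 5.58, 4.08, 17.2 and 14.5 CPM, with DMSO at 4.88 to 9.04 CPM. Pdk4 thus stayed above DMSO at 100 µM, where most of the list did not.

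Promoters of 66 of the 87 list genes were found by symbol in RefSeq tables of assembly GRCr8, each running from 250 bases before to 50 after the start of the gene. The PPAR response element was searched on both strands as the half-site AGGNCA, any base, and AGGNCA again, which 0.415% of 33469 promoters hold. It occurred in 1 of the 66, that of Fabp1, the liver fatty acid binding protein, at bases -77 to -65. Fabp1 had 72.1, 97.1, 98.0, 91.7, 165 and 120 CPM with DEHP and 59.1 to 124 CPM in DMSO, so it was above the DMSO range at 33.3 µM alone. The promoter of Ehhadh, which had the largest ratio to DMSO among the tested genes named above, is shown beside it. A missing match says only that these letters are not in this window. The promoters lie at chr4:104749090-104749389 (Fabp1) and chr11:92746159-92746458 (Ehhadh), both on the + strand, and capitals mark the match.
Fabp1: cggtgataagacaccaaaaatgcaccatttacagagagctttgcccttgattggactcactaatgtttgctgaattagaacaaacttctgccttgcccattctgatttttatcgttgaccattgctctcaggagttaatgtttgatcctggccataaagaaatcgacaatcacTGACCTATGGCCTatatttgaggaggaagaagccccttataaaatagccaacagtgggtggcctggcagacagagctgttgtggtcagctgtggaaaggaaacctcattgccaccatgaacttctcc
Ehhadh: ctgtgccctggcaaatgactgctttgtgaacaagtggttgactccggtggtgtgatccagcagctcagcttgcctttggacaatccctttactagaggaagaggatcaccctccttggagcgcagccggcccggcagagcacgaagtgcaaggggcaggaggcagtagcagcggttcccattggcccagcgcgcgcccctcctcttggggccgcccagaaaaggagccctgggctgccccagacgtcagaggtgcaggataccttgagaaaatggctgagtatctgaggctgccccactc

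A trend over dose asks a different question: which genes followed the dose up to 100 µM. The trend was fitted with log2(1 + dose in µM) over the 6 DEHP and 8 DMSO libraries and is given as the fitted log2 change at 100 µM. Of 9830 probes, 18 passed (0.183%): 1 was higher (0.0102%) and 17 were lower (0.173%). Before adjustment 339 probes were higher (3.45%) and 641 lower (6.52%) at a p under 0.05. With DESeq2 153 passed. Without DMSO replicate 5 there were 145 calls, all 18 among them. The count was 0 without the library at 100 µM, 49 without that at 33.3 µM, 7 without 11.1 µM and 8 without 0.4 µM. It was 10 without DMSO replicate 2, 10 without replicate 3, 6 without replicate 4, 9 without replicate 8 and 10 without replicate 9. Against the 3 DMSO libraries of plate 2 alone, or with DMSO replicate 1 included, it was 0. The count thus moved by over 1.5 times with each of these libraries.

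All 17 probes that fell were below all 8 DMSO libraries at both 33.3 and 100 µM, and 15 of them at 11.1 µM. At 3.7 µM it was 4, at 1.2 µM 4 and at 0.4 µM 1. In 10 of the 17 the level at 11.1 µM was below that at 33.3 µM, so the order of doses was not kept between them. The test used the same libraries, so these counts describe the shape of the calls and support nothing more.

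Ahsg, which encodes fetuin-A, had 5730, 5576, 4961, 4334, 4664 and 3251 CPM over the rising doses and 5438, 6058 and 6386 CPM as the lowest, median and highest of DMSO. Its fitted change was -0.85 ± 0.13 (SE, edgeR adjusted p = 0.0221). Crp, C-reactive protein, had 490, 459, 494, 374, 400 and 253 CPM, with DMSO at 475 to 629 CPM. Its fitted change was -1.07 ± 0.15 (adjusted p = 0.0198). From 11.1 µM upward both genes lay below every DMSO library. C4bpb, the β chain of the complement inhibitor C4b-binding protein, had a fitted change of -0.99. Its level was 64.1 CPM in the DMSO median and 39.0 CPM at 100 µM. Ttpa, which loads vitamin E onto lipoproteins, had a fitted change of -0.93, with 24.0 CPM at 100 µM and 30.1 to 48.1 CPM in DMSO.

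The calls also held Cps1, Bhmt, Hsd17b13 and Acly. Cps1, which starts the urea cycle, had 391, 208, 233, 188, 110 and 73.7 CPM, against 212 to 304 CPM in DMSO. Its fitted change was -1.85 ± 0.30 (adjusted p = 0.0221). The lowest dose was above all DMSO libraries, and those of 1.2, 11.1, 33.3 and 100 µM were below them. Bhmt, which remethylates homocysteine with betaine, had 83.4, 47.0, 73.5, 59.9, 41.4 and 28.9 CPM, with DMSO at 56.1 to 124 CPM, and its fitted change was -1.51 ± 0.24. Hsd17b13, a protein of hepatocyte lipid droplets, had 166, 158, 155, 138, 117 and 67.7 CPM, with DMSO at 153 to 200 CPM. Its levels went down at each step and its fitted change was -1.25 ± 0.18 (adjusted p = 0.0198). Acly, which makes cytosolic acetyl-CoA for fatty acid synthesis, had 691, 573, 618, 545, 345 and 381 CPM, with DMSO at 528 to 700 CPM. Acly had a fitted change of -0.95, and its level was lower at 33.3 than at 100 µM. The other 16 probes that fell were lowest at 100 µM.

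Slc37a4, the glucose 6-phosphate transporter of the endoplasmic reticulum, had 53.6, 38.8, 37.5, 21.1, 20.4 and 6.55 CPM. DMSO had 27.1, 46.4 and 61.3 CPM as the lowest, median and highest, and the fitted change was -2.33 ± 0.35 (adjusted p = 0.0221). The 3 highest doses lay below the DMSO range. Slc17a3, an organic anion transporter, had 233, 303, 282, 163, 204 and 94.5 CPM, with DMSO at 262 to 420 CPM, and a fitted change of -1.65. Ugt2b7, a glucuronosyltransferase of a family whose probes can share reads, had a fitted change of -2.12. It had 4.64 CPM at 100 µM and 17.9 to 40.0 CPM in DMSO. Grina and Fam8a1, membrane proteins of the secretory pathway, had fitted changes of -1.67 and -2.3 (edgeR), and Epas1, the hypoxia factor HIF-2α, had -0.84. Rgd1562178, for which no function is given here, had a fitted change of -1.38.

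The lowest fitted value belonged to a probe of Selenoi, an ethanolamine phosphotransferase, at -2.58 ± 0.49 (adjusted p = 0.0475). That probe had 12.5, 11.8, 13.2, 4.59, 5.30 and 1.09 CPM with DEHP and 6.61 to 16.5 CPM in DMSO. The second and more abundant Selenoi probe had 20.9, 22.9, 26.8, 19.9, 25.2 and 27.6 CPM, with a fitted change of -0.14 ± 0.25 (adjusted p = 0.950). The probes of this gene did not move together, so the call holds for 1 probe and not for the gene. Counted by each gene's most abundant probe, the trend has 16 lower calls and 1 higher.

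The probe that rose was that of Thbs1, thrombospondin 1, a matrix protein of platelets and wounded tissue. It had 85.6, 123, 114, 128, 144 and 191 CPM with DEHP and 75.1, 92.1 and 107 CPM as the lowest, median and highest of DMSO. Its fitted change was 0.88 ± 0.14 (adjusted p = 0.0221), and all doses from 1.2 µM were above DMSO. The next higher genes by unadjusted p did not pass. Among them Tpm1, a tropomyosin of actin filaments, had 443, 470, 460, 499, 619 and 629 CPM against 349 to 474 CPM in DMSO (0.66 ± 0.13, edgeR adjusted p = 0.0612). Tagln, an actin-binding protein of contractile cells that is on the stellate marker list, had 0.89 ± 0.19 (adjusted p = 0.0742). The summed stellate markers were 222 to 291 CPM in DMSO and 242 to 316 CPM with DEHP, highest at 0.4 µM, and their part in these values was not tested. Fosl1, an AP-1 factor, had 1.16 ± 0.26, and Glis3, a transcription factor, 2.28 ± 0.45 at levels of at most 6.28 CPM.

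**Figure D3:**
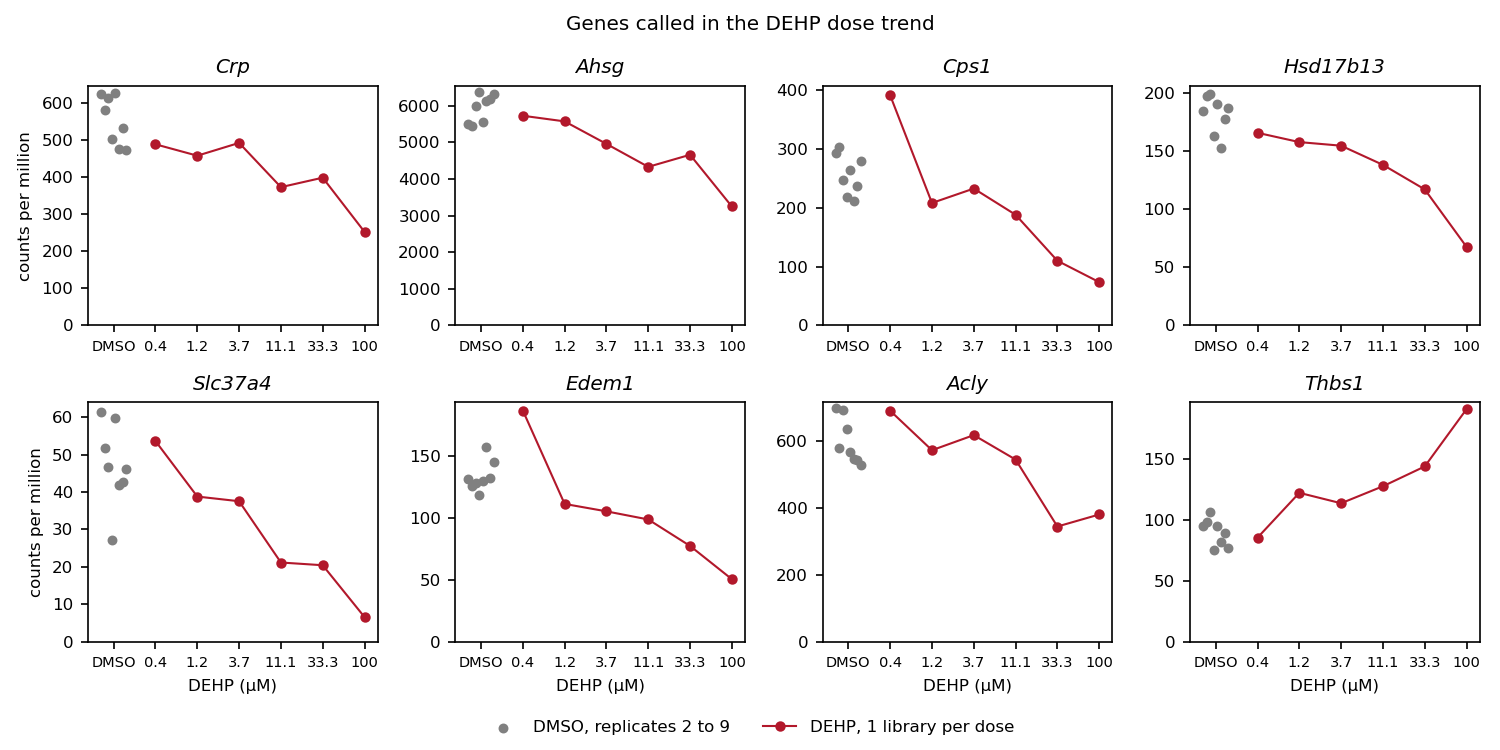
CPM of 8 genes called in the dose trend, in the 8 DMSO libraries (grey points) and the DEHP libraries (red, 1 library per dose in µM). From 33.3 µM upward the 7 genes that fell lie below every DMSO library, and Thbs1 lies above.

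In the trend no PPARα gene passed: the smallest adjusted p were 0.0628 for Vnn1 (0.83 ± 0.16) and 0.0777 for Crat (1.28 ± 0.28). The median fitted change of the 59 was 0.08, with 36 fitted higher (61%), where the median of all genes was -0.02 and 48.1% were higher. Cyp4a1 had 1.95 ± 0.65 (edgeR adjusted p = 0.294) and Ehhadh 2.32 ± 0.84 (adjusted p = 0.345), and the Ehhadh value turned to -0.12 without the library at 33.3 µM. By list the medians were 0.45 for peroxisomal, 0.14 for mitochondrial and 0.18 for microsomal and cytosolic genes, and -0.14 for lipid uptake, droplets and signalling. Without the library at 33.3 µM the peroxisomal median was 0.08 and the microsomal and cytosolic one -0.017, and without that at 100 µM they were 0.81 and 0.66. Without DMSO replicate 5, Crat, Eci1 and Vnn1 passed as higher (5.08% of the 59, against 0.244% of all genes).

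Of 19 markers 18 had a negative fitted change (94.7%, against 51.9% of all genes), with a median of -0.45, and 2 passed, Ahsg and Cps1. Below all 8 DMSO libraries were 1 of the 19 at 0.4 µM (9.84% of all genes), 8 at 1.2 µM (8.02%), 6 at 3.7 µM (8.78%), 4 at 11.1 µM (9.64%), 10 at 33.3 µM (7.72%) and 11 at 100 µM (10.5%). Albumin, Alb, had 6699, 4429, 4212, 5082, 4029 and 4124 CPM, with DMSO at 4618 to 5210 CPM, and did not pass (-0.44 ± 0.18, edgeR adjusted p = 0.410). Its lowest dose was above all DMSO libraries and 4 of the other doses were below them. In bulk samples like these, fewer hepatocytes and less of a transcript per hepatocyte cannot be told apart.

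The unfolded protein response, by which cells raise chaperones and degradation factors when proteins misfold in the endoplasmic reticulum, had 13 genes tested, and all 13 had a negative fitted change (51.9% of all genes had one), with a median of -0.51. The median was -0.30 without DMSO replicate 5. The shared sign depended on the model. In the model of 3 chemicals given below, the DEHP slope was positive for Hspa5 (0.13), Creld2 (0.18) and Derl3 (0.22) and negative for the others. Of the 13, 1 passed, where 16 of 9465 genes were called lower. Edem1, which directs misfolded glycoproteins to degradation, had 187, 111, 105, 98.8, 77.4 and 50.5 CPM, with DMSO at 119, 131 and 157 CPM as the lowest, median and highest. Its fitted change was -1.39 ± 0.23 (adjusted p = 0.0221). The lowest dose was above and the 5 others were below all DMSO libraries. Its partner in degradation Sel1l had -0.66 ± 0.16 (edgeR adjusted p = 0.110), with 127, 103, 105, 111, 95.4 and 90.1 CPM against 112 to 146 CPM in DMSO. Xbp1, the transcription factor of a branch of the response, had 23.1, 11.3, 14.3, 13.8, 18.6 and 7.37 CPM against 12.3 to 39.3 CPM. Hspa5, the chaperone BiP, had 165, 165, 149, 160, 172 and 188 CPM against 159 to 260 CPM, so 1 dose, 3.7 µM, was below DMSO.

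The endoplasmic reticulum stress element was searched on both strands as CCAAT, 9 bases of any kind and CCACG, which 0.0657% of promoters hold. Of 19 genes on the list 16 had a promoter entry and 8 held it: Calr, Canx, Creld2, Derl3, Dnajc3, Hsp90b1, Hspa5 and Xbp1. The list is made of genes known for this element, so the share is no finding. Edem1, the member that passed, did not hold these letters in its window. Its promoter at chr4:143353425-143353724 is shown with that of Xbp1 at chr14:84604373-84604672, both on the + strand, where capitals mark the match at bases -65 to -47.
Edem1: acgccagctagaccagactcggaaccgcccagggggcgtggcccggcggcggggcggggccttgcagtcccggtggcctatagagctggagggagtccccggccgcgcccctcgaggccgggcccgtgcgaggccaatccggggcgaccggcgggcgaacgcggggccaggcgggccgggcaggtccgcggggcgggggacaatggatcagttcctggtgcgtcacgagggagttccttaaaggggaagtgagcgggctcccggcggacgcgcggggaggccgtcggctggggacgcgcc
Xbp1: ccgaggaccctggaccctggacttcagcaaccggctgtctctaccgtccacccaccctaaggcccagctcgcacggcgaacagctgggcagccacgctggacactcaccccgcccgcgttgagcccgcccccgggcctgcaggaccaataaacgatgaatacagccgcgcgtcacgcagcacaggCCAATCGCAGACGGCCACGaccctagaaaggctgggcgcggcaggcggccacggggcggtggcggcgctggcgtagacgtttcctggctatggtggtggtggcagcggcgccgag

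Other liver pathways gave few calls. Of 18 fatty acid synthesis genes 14 were fitted lower (51.9% of all genes), with a median of -0.40, and Acly passed. Without DMSO replicate 5, Acly, Lpin1 and Pklr of this list were called lower (16.7%, against 1.23% of all genes). Pklr, liver pyruvate kinase, had 13.7, 12.1, 15.4, 13.3, 5.04 and 7.10 CPM against 10.5 to 20 CPM in DMSO (-1.49 ± 0.32, edgeR adjusted p = 0.0742). Of 12 genes of bile acid synthesis and transport 11 were fitted lower (51.9% of all genes), with a median of -0.51 and 0 called. Among them 5 were lower at an unadjusted p under 0.05 in edgeR's trend, where 6.48% of all genes were. Slco1a1, an uptake transporter, had 43.2 and 41.8 CPM at the 2 highest doses and 55.3 to 75.0 CPM in DMSO (-0.75 ± 0.15, edgeR adjusted p = 0.0742). Of the 12, Abcb11, the bile salt export pump, and Slco1a1 were called lower without DMSO replicate 5 (16.7%, against 1.23% of all genes).

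Of 30 drug-metabolism genes of the receptors CAR and PXR, 22 were fitted lower (51.9% of all genes), with a median of -0.19. In edgeR's trend 0 passed, and before adjustment 0 were higher and 6 lower (20%, where 6.48% of all genes were lower). Leaving out DMSO replicate 5, Cyp2b3 and Ugt2b37 were called lower (6.67%, against 1.23% of all genes). Ugt1a1 was called lower in the library at 100 µM tested alone. Cyp3a1 had 461, 407, 427, 525, 408 and 532 CPM, with all doses inside the DMSO range of 366 to 552 CPM. Cyp2b2 had 0.96, 2.05, 0.89, 2.55, 3.98 and 3.0 CPM against 0.70 to 3.26 CPM, so 33.3 µM alone was above it, on few counts. Of 15 esterases and lipases that could hydrolyse DEHP, 13 were fitted lower (51.9% of all genes), with a median of -0.23 and 0 called. Of 16 cell cycle genes 12 were fitted higher (48.1% of all genes), with a median of 0.43 and 0 called. Mcm5, a subunit of the replicative helicase, had 3.61, 7.19, 3.80, 4.59, 10.9 and 15.8 CPM, with DMSO at 3.03 to 6.81 CPM (1.27 ± 0.41, edgeR adjusted p = 0.276). At 0.4 µM 8 of the 16 were below all DMSO libraries (9.84% of all genes), and at 100 µM 9 were above them (17% of all genes).

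**Figure D4:**
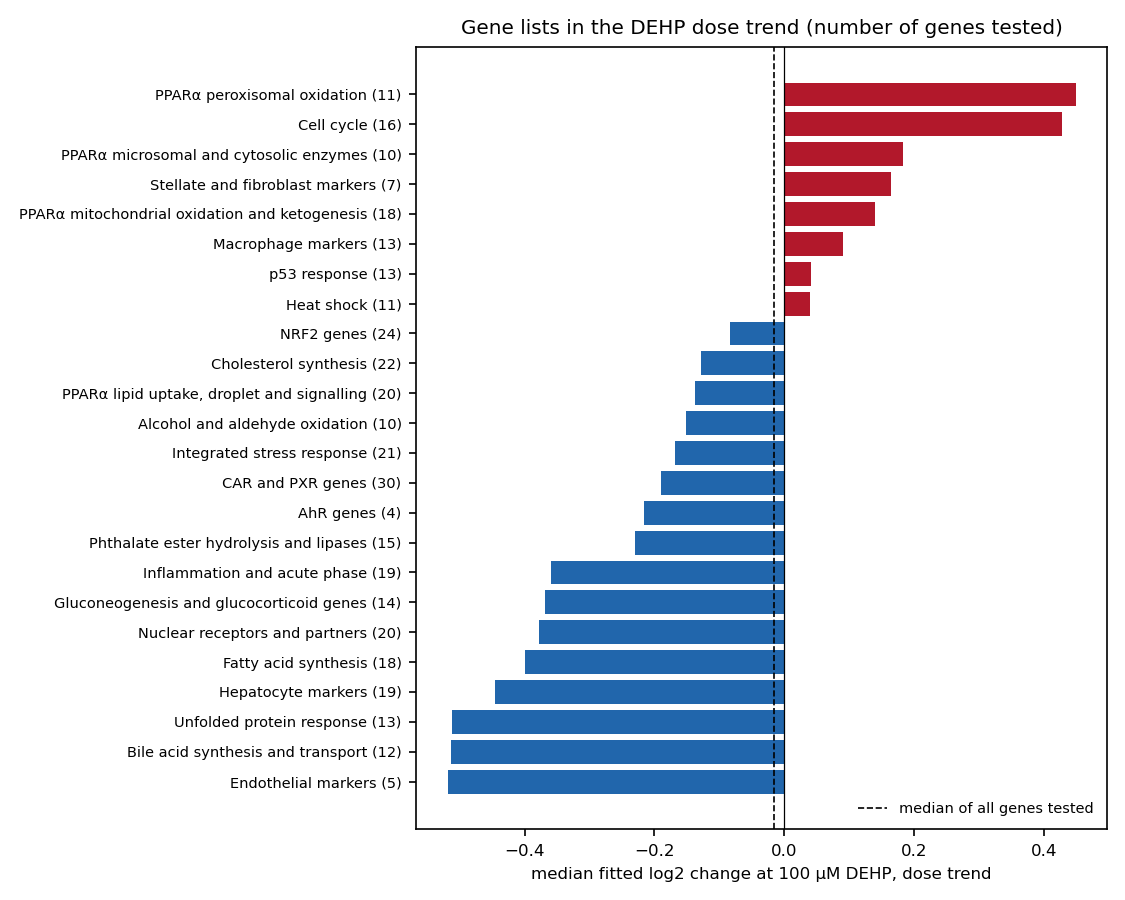
Median fitted log2 change at 100 µM DEHP of each gene list with at least 4 genes tested (bars, number of genes in brackets), with the median of all genes tested as the dashed line. Peroxisomal oxidation is the highest at 0.45, and hepatocyte markers (-0.45), bile acid genes (-0.51) and the unfolded protein response (-0.51) are among the lowest.

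Tested alone against DMSO, the library at 100 µM gave 22 calls among 10013 probes (0.22%), all lower, and 9 of the 18 trend calls were among them. The count was 113 without DMSO replicate 5, 100 with DESeq2, 44 without the plate term, 3 without DMSO replicate 6 and 0 without any one of the others. Of the PPARα genes, Acsl1 (-2.17, edgeR adjusted p = 0.0065) and Cd36 (-1.26, adjusted p = 0.00684) were called without replicate 5, both lower. Ndufa5, a subunit of respiratory complex I, had 124, 138, 118, 47.1, 90.9 and 18.3 CPM, with DMSO at 87.3 to 181 CPM. Ugt1a1, the bilirubin glucuronosyltransferase, had 49.4 CPM at 100 µM and 155 to 285 CPM in DMSO. Fdps, farnesyl diphosphate synthase of cholesterol synthesis, had 64.2, 124, 124, 21.9, 57.0 and 7.64 CPM, with DMSO at 49.4 to 117 CPM. In Ndufa5 and Fdps the library at 11.1 µM was also below DMSO while that at 33.3 µM was inside its range. In edgeR the libraries at 0.4, 1.2, 3.7 and 11.1 µM gave 0 calls each. Before adjustment 313, 195, 247 and 318 probes had a p under 0.05. DESeq2 called 6, 0, 0 and 6.

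Taking the 33.3 and 100 µM libraries together against DMSO gave 0 calls among 9857 probes (0%) in edgeR, where 710 had a p under 0.05 before adjustment, and 70 in DESeq2. Without DMSO replicate 5 there were 37. All 6 libraries together gave 0 among 9830 in edgeR, where 576 had a p under 0.05 before adjustment, and 2 in DESeq2. The 2 highest doses differed for the PPARα genes, as given above.

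Perfluorooctanoic acid (PFOA), a fatty acid mimic that activates PPARα, and the pyrethroid S-bioallethrin were tested on the same plate at the same doses and share the DMSO libraries. Both were chosen as the chemicals of this series most like a peroxisome proliferator, and the other dose series were not compared. Higher PPARα genes than with DEHP are therefore no independent result. At 33.3 µM Cyp4a1 had 662 CPM with PFOA, 407 with S-bioallethrin and 277 with DEHP. At 11.1 µM it had 218, 234 and 34.9 CPM. Ehhadh at 33.3 µM had 194, 77.1 and 25.2 CPM, and at 11.1 µM 16.8, 34.1 and 2.29 CPM. Where PFOA and S-bioallethrin were already above DMSO at 11.1 µM for these genes, DEHP was not. At 100 µM Ehhadh had 115, 75.3 and 2.73 CPM. WY-14,643, a potent PPARα agonist measured once at 15 µM, had 1061 CPM of Cyp4a1, 377 of Ehhadh and 467 of Acot1, at a dose DEHP was not given at.

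**Figure D5:**
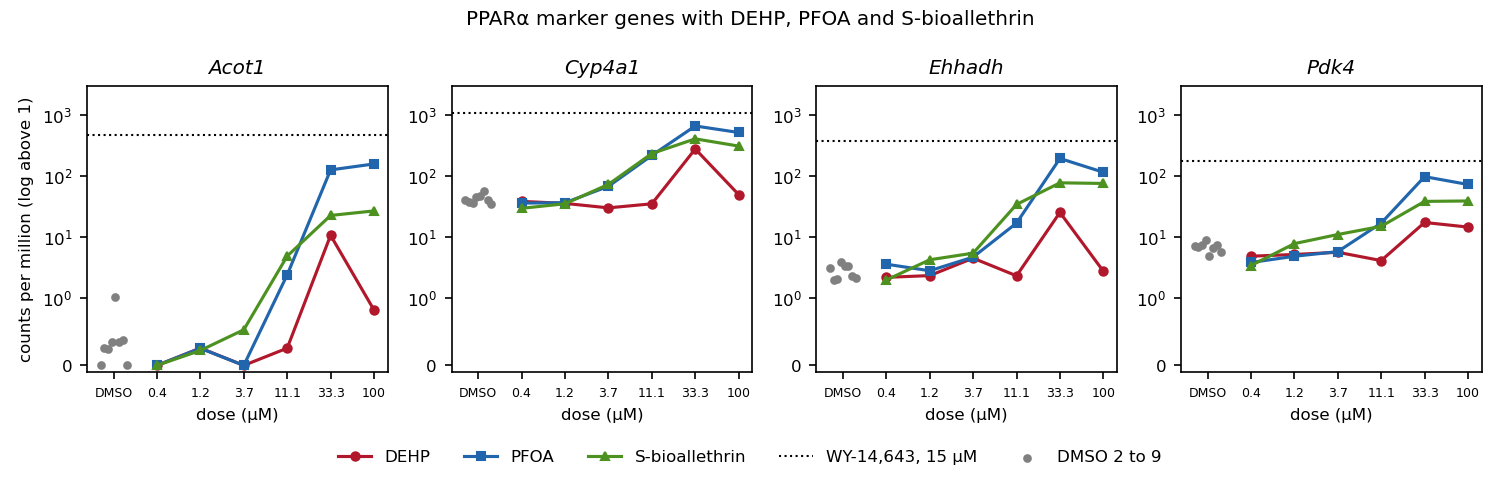
CPM (log scale above 1, linear below) of 4 PPARα genes with DEHP, PFOA and S-bioallethrin by dose in µM, in DMSO (grey points) and with WY-14,643 at 15 µM (dotted line). At 33.3 µM DEHP lies below both other chemicals for each gene, and at 100 µM it returns to near the DMSO points for Acot1, Cyp4a1 and Ehhadh but not Pdk4.

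The slopes over dose were compared directly in a model of the 3 chemicals. PFOA differed from DEHP for 958 of 10226 probes (9.37%), with a higher slope for 653 (6.39%) and a lower one for 305 (2.98%). Of 61 PPARα genes 38 were higher with PFOA and 0 lower, with a median difference of 1.32 on the log2 scale at 100 µM, where that of all genes was 0.01. The 61 hold the 59 tested with DEHP alone, plus Acot1 and Fabp3. Acot1 and Fabp3 passed the minimum level here mostly through PFOA and S-bioallethrin libraries, where they are high. Both are among the 38, and their calls are therefore no support. For Cyp4a1 the difference was 2.74 ± 0.67 (edgeR adjusted p = 0.0105), for Ehhadh 4.36 ± 0.84 (adjusted p = 0.00177) and for Vnn1 0.33 ± 0.30 (adjusted p = 0.527). S-bioallethrin differed for 345 probes (3.37%), with a higher slope for 247 (2.42%) and a lower one for 98 (0.958%). Its PPARα genes had 15 of 61 higher, 0 lower and a median difference of 0.68. For Ehhadh this difference was 3.42 ± 0.83 (adjusted p = 0.0215), and for Cyp4a1 2.01 ± 0.66 (adjusted p = 0.106), which did not pass. Some genes called lower with DEHP also had a lower slope with both other chemicals (edgeR adjusted p under 0.05). Slc37a4 had -2.64 with PFOA and -3.17 with S-bioallethrin, Cps1 had -1.81 and -2.23, and Acly had -1.42 and -1.59. Others passed with neither, such as Bhmt (-0.46 and 0.11) and Edem1 (-0.42 and -0.41).

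The PFOA library at 100 µM stands apart, with a library score of 1.83. Without the 3 libraries at 100 µM there were 209 differences for PFOA and 282 for S-bioallethrin, and of 60 PPARα genes 22 and 12 were higher. Without the DEHP library at 100 µM alone the counts were 263 and 63. The PFOA library at 100 µM was not left out on its own. The probe with the greatest difference for both chemicals was that of Tmem255b, a transmembrane protein. It had 6.49, 0, 0.22, 0, 0 and 0.27 CPM with DEHP and 0.13 to 4.54 CPM in DMSO. With PFOA it had 4.29 to 26.0 CPM, and with S-bioallethrin 5.65 to 19.0 CPM. At 0.4 µM these chemicals already had 13.28 and 12.45 CPM. Tmem255b passed the minimum level mostly through their libraries, where it is high, so its calls are no support. Ccl2, a monocyte chemokine, had the lowest difference, at -4.80 ± 0.98 for PFOA, with 0.24, 2.57, 0.67, 2.04, 2.92 and 6.83 CPM over the DEHP doses against 0.70 to 2.26 CPM in DMSO. Ccl2 had at most 0.71 CPM with PFOA and at most 0.41 CPM with S-bioallethrin. It passed the minimum level mostly through DEHP libraries, where it is high, so this difference is no support. Its own trend with DEHP did not pass (2.59 ± 0.61, edgeR adjusted p = 0.1).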

How the data were processed

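The authors deposited a table of counts per probe, taken as raw from the whole numbers it holds, for 22253 probes of 21143 gene symbols in 192 libraries. The submitters' processing notes name Bowtie as the aligner, whose version is not given in the sources used here. Here, probes reaching 2.45 CPM, equal to 10 counts in a library of median depth, in 3 or more libraries were kept and scaled by TMM in edgeR 4.0.16 (R 4.3.3), and the quasi-likelihood test was fitted with plate as a factor. The SE of a log2 change is its size divided by the square root of F. The models of 3 chemicals kept probes from 2.222 CPM. A call is a Benjamini-Hochberg adjusted p under 0.05 over all probes tested. DESeq2 1.42.0, no filter, no plate term, a rank of dose, a library score and each DEHP or DMSO library left out were alternatives. The script was tested on simulated counts. Genes are named where they passed, had the most extreme values of a comparison, or stand on a list for their role. The members and lists were chosen with earlier results of these data known. Of the symbols, 15522 were found in RefSeq. A total of 3663083 to 4478145 counts per DEHP library limits precision for low genes. No 2 of the libraries compared agreed within sampling noise (smallest χ2 per degree of freedom 2.22). Results for a few genes are not reported here.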

Additional observations from a re-analysis of the deposited data

Results flagged for a closer look

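In 4 of 31 gene values tested, 1 of the 8 DMSO libraries lay far from the others, and each time it was replicate 5, at the low end on the log2 CPM scale. Its gap to the next library, as a share of the group's range, was 0.588 for the called Selenoi probe, 0.534 for Slc37a4, 0.607 for Crat and 0.583 for Ech1, above Dixon's critical value. Chance gives about 1 such value in 20. Replicate 5 lowers the DMSO level for these genes, so it lies toward the DEHP values for Selenoi and Slc37a4 and away from them for Crat and Ech1.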

How the results depend on the processing

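The counts of calls moved with most choices. In the dose trend (18 calls) DESeq2 gave 153, a library score as covariate 420, no plate term 32, dose by rank 2, and DMSO of plate 2 only, DMSO replicate 1 included, or no library at 33.3 and 100 µM 0 each. Leaving out 1 library gave 0 to 145. For 33.3 and 100 µM together (0 calls), DESeq2 gave 70, the score 211, no filter 35, no plate term 1, and leaving out 1 library 0 to 37. For all 6 libraries (0 calls) DESeq2 gave 2. For single libraries DESeq2 gave 6 at 0.4 µM, 6 at 11.1 µM, 19 at 33.3 µM and 100 at 100 µM, and no plate term gave 6 and 44 at the 2 highest doses. Leaving out 1 DMSO library gave 0 to 2 at 11.1 µM, 0 to 10 at 33.3 µM and 0 to 113 at 100 µM. For the slope of PFOA against DEHP (958) DMSO replicate 1 gave 374, no libraries at 100 µM 209, and leaving out 1 DEHP or DMSO library 263 to 1173. For the S-bioallethrin slope (345) DESeq2 gave 540, the score 1167, no filter 218, DMSO replicate 1 111, and leaving out 1 DEHP or DMSO library 63 to 419. No single PFOA or S-bioallethrin library was left out alone. Without the libraries at 33.3 and 100 µM the fitted trend turned to -0.19 for Acot2, -0.82 for Cyp4a1, -0.80 for Eci1 and -1.30 for Pdk4, and leaving out 1 library gave -0.12 (that at 33.3 µM) to 3.70 (that at 100 µM) for Ehhadh. Of the other values of named genes in the trend, 649 kept direction and side of the threshold, 182 lost and 32 gained a call. Of the list medians, 583 values moved by less than the spread between replicates and 38 by more, most often without the libraries at 33.3 and 100 µM. That setting turned the median to -0.11 for all PPARα genes, -0.19 for mitochondrial genes, 0.12 for fatty acid synthesis and -0.045 for the cell cycle. The cause was not tested. The settings without 33.3 and 100 µM together or without all libraries at 100 µM, and all tests of single libraries, were chosen after seeing the data. No paired analysis was possible because each dose has 1 library, so a shared replicate number pairs nothing. With 1 library per dose, a dose and its library cannot be told apart, and genes of a few CPM are limited by depth.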
